A study of Xenopus laevis with 6 samples.

Results

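The FGF signalling genes described here are the ligands named fgf with a plain number, the receptors (fgfr1 to fgfr4 and fgfrl1), the Sprouty and Spred inhibitors, the ETS factors etv1, etv4 and etv6, and the dual-specificity phosphatases dusp4, dusp5, dusp6, dusp7 and dusp9. They were chosen by gene symbol alone, so no measured value decided which genes belong. The rule found 71 homeologs of 39 symbols among 49281 genes. Xenopus laevis is an allotetraploid frog whose genome carries an L and an S copy (homeolog) of many genes, and 32 of the 39 symbols had both. By role they comprise 33 ligand, 10 receptor, 14 Sprouty or Spred, 4 Etv and 10 Dusp homeologs. Another 6 genes have a locus identifier with a provisional fgf, spred1 or etv4 name and lay outside the rule. The copies of the pair of fgf23 genes, endocrine ligands named with a further number, lay outside it too, so the ligands are not the complete family.

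Bulk RNA sequencing was done on wild type animal pole explants at stage 17. The animal pole of the blastula holds pluripotent cells that become epidermis when cultured alone. The treated group received, from stage 9 to 17, K02288, which blocks type I receptors of BMP, and CHIR99021, which switches on canonical Wnt signalling by blocking GSK3. The control group had DMSO over the same stages. Each group had 3 libraries, here called a, b and c after their column names. The labels call the treated explants neural crest-reprogrammed and the controls epidermal. They name no clutch, embryo or number of explants per library, so p-values rest on a spread between libraries that could be purely technical.

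FGF ligands bind receptor tyrosine kinases of the FGFR family together with heparan sulfate, and the receptors signal through the adaptor Frs2 to Ras, Raf, Mek and Erk. Erk signalling switches on transcription of its own inhibitors (Sprouty, Spred, Dusp6 and related phosphatases, Il17rd) and of the ETS factors Etv1, Etv4 and Etv5, which is why these genes are used as readouts of the pathway. In the frog embryo FGF signalling is known for its parts in mesoderm formation, in neural induction, in posterior patterning and in the induction of neural crest at the border of the neural plate.

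Gene reads numbered 33706389 to 43155031 per library. Of the neural crest markers examined, 13 of 14 homeologs were higher in treated explants by limma and 0 lower, of the epidermal markers 11 of 12 were lower and 0 higher, and of the multiciliated cell and ionocyte markers all 7 and all 8 were lower. Of the neural plate markers 7 of 8 were higher, and sox2.L did not pass. Of the cement gland markers all 5 were higher, and their summed level was 57269, 44128 and 101690.0 counts in treated a, b and c against 7152 to 13558 in controls. Treated library a stood apart from b and c: its summed epidermal marker level was 202614 normalized counts, against 37430.2 and 35137 in b and c and 782219 to 974528 in controls. Its summed neural crest marker level was also the highest, at 82795 counts against 41902 in b and 58508 in c. The position on the first principal component was 106 in treated a, 187 and 196 in treated b and c, and -170 to -156 in controls. DMSO library c had the lowest summed mesoderm marker level, given with the ligands below. Results that change when one of these libraries is left out are given with that value.

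Levels are the authors' normalized counts, that is, a gene's reads after division by the library's size factor. They are not corrected for gene length, so levels are compared between libraries and not between genes. Fold changes are treated over DMSO on the log2(normalized count + 1) scale with their standard error (SE), which understates changes of low genes, and a call means a limma adjusted p under 0.05 over all 22932 genes with a mean of at least 10. The limma fit behind a call does not pair the libraries by letter. In bulk explants, fewer cells of a type and less RNA per cell cannot be told apart.

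Of the 71 homeologs, 39 passed the filter on the mean, 32 did not, and 6 of the latter had no read in any library. Of the 39 tested, 13 were called higher in treated explants, 9 lower and 17 in neither direction. That is 56.4% called, close to the 55.8% of all tested genes. The share called higher was 33.3%, beside 26.1% of all tested genes, and the share called lower 23.1%, beside 29.7%. Higher by at least 2-fold were 30.8% of members and 15.9% of all genes, and lower by at least 2-fold were 12.8% and 24.4%. The median log2 fold of the tested members was 0.69, beside 0.01 over all genes. Upper quartile scaling moved the median of all genes to a log2 fold of 0.30. Under it 17 members were higher and 6 lower, counts that stand without an all-gene share. These shares describe the members that passed the filter, of which 3 (spred3.L and both copies of fgf3) had a control mean under 10 and 2 a treated mean under 10, and so passed through the other group. Groups were fully separate for 26 of 39 members (66.7%), beside 64.9% of all tested genes. The edgeR test called 12 members higher and 9 lower, where 54.0% of all genes were called, and DESeq2 called 14 higher and 10 lower, where 57.8% were.

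**Figure D1:**
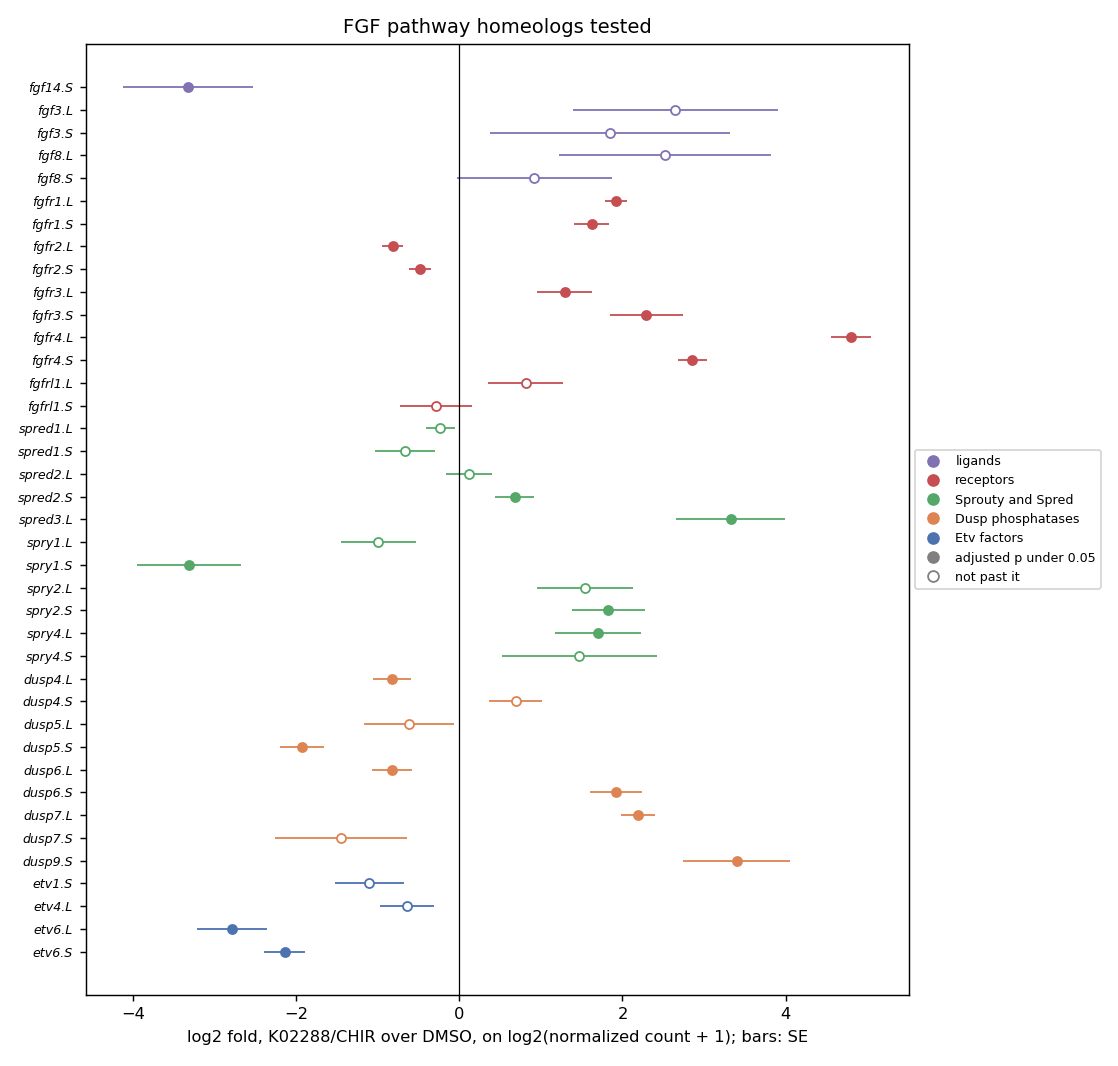
The log2 fold of treated over DMSO explants is drawn for each of the 39 tested homeologs, with bars for the SE and filled points for a limma adjusted p under 0.05. Both homeologs of fgfr1, fgfr3 and fgfr4 lie to the right of 0 and both of fgfr2 to the left, while dusp6 and dusp4 have an L homeolog to the left and an S homeolog to the right.

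Most receptor genes changed, and fgfr4.L had the largest absolute log2 fold of the tested members. Of the 10 receptor homeologs 6, both copies of fgfr1, fgfr3 and fgfr4, rose, and both copies of fgfr2 fell, while fgfrl1 was called in neither direction. Over all tested genes 55.8% were called, 26.1% higher and 29.7% lower. All 8 called receptor homeologs had groups that did not overlap, as had 64.9% of all tested genes. The order of the folds, from the highest, was fgfr4.L, fgfr4.S, fgfr3.S, fgfr1.L, fgfr1.S and fgfr3.L.

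Fgfr4, a receptor of early neural and mesodermal tissue in the frog, rose most. In DMSO libraries a, b and c fgfr4.L had 300.3, 527 and 495 normalized counts, and in treated libraries 9825, 12927 and 13509. Every treated library was far above every control, with treated a the lowest of the 3. The change of fgfr4.L was a log2 fold of 4.80 ± 0.25 (SE, n = 3 per group; limma adjusted p = 7.18e-05), or 27.9-fold. Its S copy had 608, 593 and 794 counts in controls and 3976, 5118 and 5375 in treated explants. Those groups were separate as well, and again treated a was lowest. The fgfr4.S change was 2.86 ± 0.18 on the log2 scale (limma adjusted p = 9.65e-05), or 7.24-fold. The sum of both copies went from 1106 ± 191 counts in controls to 16910 ± 2725 in treated explants (SD, n = 3).

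Fgfr1, a receptor that serves in mesoderm and neural development, also rose in both copies. Counts of fgfr1.L were 794, 679 and 679 in DMSO a, b and c and 2467, 2846 and 2820.0 in treated a, b and c. Counts of fgfr1.S were 377, 242 and 267 in controls and 884, 802 and 1006 in treated explants. Neither copy overlapped between the groups, and treated a was the lowest treated library for fgfr1.L but not for fgfr1.S. The log2 folds were 1.92 ± 0.13 for fgfr1.L (limma adjusted p = 0.000126) and 1.62 ± 0.21 for fgfr1.S (limma adjusted p = 0.000906).

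Fgfr3, a receptor of the developing nervous system and cartilage, rose with a wider spread. Counts of fgfr3.L were 132, 75.6 and 93.9 in controls and 281, 164 and 305 in treated explants, and those of fgfr3.S were 31.2, 31.1 and 55.6 against 236, 105 and 273. In both copies treated library b was the lowest of the treated libraries and still above every control. The log2 fold of fgfr3.S was 2.29 ± 0.45 (limma adjusted p = 0.00471). For fgfr3.L it was 1.29 ± 0.34 (limma adjusted p = 0.0155). Leaving out DMSO b (limma adjusted p = 0.052) or treated c (0.0567) ended that call.

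Fgfr2, a receptor known from epithelia including epidermis, went the other way. Counts of fgfr2.L were 1707, 1692 and 1685 in controls and 863, 959.6 and 1073 in treated explants. Counts of fgfr2.S were 1516, 1664 and 1823 in controls and 1121, 1305 and 1147 in treated explants. Every treated library lay below every control in both copies, with a small spread within groups. The log2 fold was -0.82 ± 0.13 for fgfr2.L (limma adjusted p = 0.00204) and -0.48 ± 0.13 for fgfr2.S (limma adjusted p = 0.0196). The fgfr2.S call depended on scaling, with a log2 fold of -0.19 under upper quartile scaling (limma adjusted p = 0.281) and -0.22 under total-count scaling (limma adjusted p = 0.193). It was also lost without DMSO b (limma adjusted p = 0.0581), DMSO c (limma adjusted p = 0.0686) or treated c (limma adjusted p = 0.0619). Fgfrl1, a receptor-like protein without a kinase domain, had 12.35 to 32.1 counts of L and 18.6 to 23.5 of S in controls. In treated explants it had 26.4 to 40.1 of L and 10.7 to 24.8 of S, and the groups overlapped for both (limma adjusted p = 0.172 and 0.615).

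**Figure D2:**
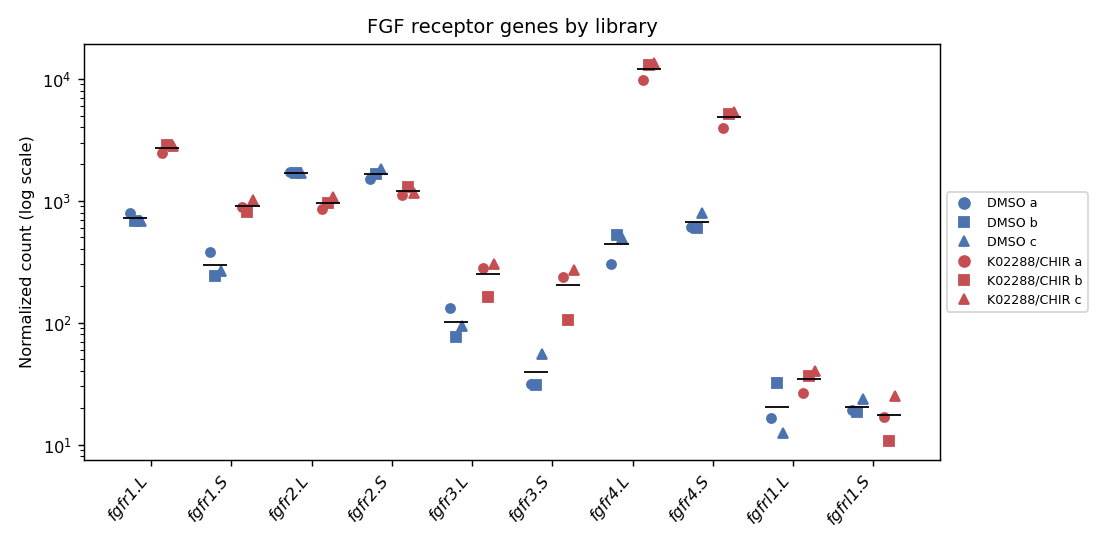
Normalized counts of the 10 receptor homeologs are drawn on a log axis, 1 point per library and a black line at each group mean. The treated points of fgfr1, fgfr3 and fgfr4 sit above all control points, those of fgfr2 below, and those of fgfrl1 overlap with the controls.

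Transcripts of secreted FGF ligands were scarce in both groups, and their sum was higher in treated explants. Summed over the 26 homeologs of secreted ligands, DMSO libraries a, b and c held 84, 99 and 9 reads and treated libraries 200, 263 and 215 reads. Scaled by the size factors this was 77.1, 103 and 11.1 normalized counts in controls and 188, 234 and 205 in treated explants. The sums did not overlap between the groups, and DMSO library c stood far below the other controls. Of these 26 homeologs 4 reached the mean filter, namely fgf3 and fgf8, and 6 had no read in any library: both copies of fgf4, fgf1.S, fgf2.S, fgf5.L and fgf21.S. No tested ligand homeolog was called higher by limma, edgeR or DESeq2, and at an unadjusted p under 0.05 the count was 0 as well. In the whole series 26.1% of tested genes were called higher. Fgf3 gave 57.3 and fgf8 81.7 counts of a mean sum of 209 in treated explants, and 10.5 and 30.9 of 63.6 in controls. The ligand sum thus rests largely on homeologs that were not called.

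Fgf8 is a ligand of the mesoderm, the midbrain-hindbrain boundary and other signalling centres, and is known to take part in frog neural crest induction. Its L copy had 17.4, 20.7 and 0 counts in DMSO a, b and c and 110.3, 16.01 and 39.1 in treated a, b and c. The S copy had 37.7, 14.5 and 2.47 in controls and 10.4, 28.5 and 41.0 in treated explants. The groups overlapped for both, and the treated library richest in fgf8.L was the poorest in fgf8.S. The log2 folds were 2.52 ± 1.30 (limma adjusted p = 0.139) and 0.92 ± 0.95 (limma adjusted p = 0.444). Summed over both copies, fgf8 averaged 30.9 ± 26.6 counts under DMSO and 81.7 ± 38.1 after treatment (SD, n = 3).

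Fgf3, a ligand of the hindbrain, ear and posterior mesoderm, was close to absent in treated library a. Its L copy had 0.918, 7.25 and 0 counts in controls and 1.88, 46.2 and 27.7 in treated explants, and its S copy 4.59, 18.6 and 0 against 1.88, 70.3 and 23.8. Both copies overlapped between groups through treated a and DMSO b. The log2 fold of 2.65 ± 1.26 for fgf3.L missed the threshold (limma adjusted p = 0.113). Leaving out treated library a made it pass (log2 fold 3.87, limma adjusted p = 0.0144). That of fgf3.S was 1.85 ± 1.47 (limma adjusted p = 0.319). In the control mean fgf3 and fgf8.L were near or below the filter on low values, and they reached it mainly through treated libraries.

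Among ligands under the filter, several had reads almost only in treated explants. Fgf9.S, a ligand of the Fgf9, Fgf16 and Fgf20 group, had no read in controls and 14.1, 3.56 and 18.1 normalized counts in treated a, b and c. Taking 3 reads over the control group as the limit of a count of 0, the ratio of treated to control was 11.2. That value leaves out the counting error of the treated reads, and the lower end of the 95% counting interval was 8.69. Fgf2.L, basic FGF, had 1.84, 5.18 and 1.24 counts in controls and 19.8, 17.8 and 13.4 in treated explants, a ratio of summed reads of 6.09 (95% counting interval 2.88 to 14.8). Fgf22.L had 0, 5.18 and 2.47 against 9.42, 25.8 and 12.398, a ratio of 6.58 (2.98 to 17.2). For these 3 ligands every treated library lay above every control. Fgf1.L and fgf7.L had no control read and 11 and 10 treated reads over the group, and fgf19.L, a ligand of the endocrine group, had 11 control reads and no treated read. Without the filter these 6 homeologs were called by limma, fgf19.L lower and the others higher, with adjusted p of 0.00371 for fgf9.S to 0.0405 for fgf22.L. With so few reads these are differences between libraries of a few molecules each, and intervals cover counting error only.

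The remaining secreted ligands, fgf5.S, fgf6, fgf7.S, fgf10, fgf16.S, fgf19.S and fgf20, had 0 to 22 reads over a group. Fgf20.L had 5.51, 16.6 and 0 counts in controls and 0, 0.889 and 2.86 in treated explants, and fgf5.S had reads in treated b and c alone, 14 in all. Groups overlapped for each of these homeologs. The provisionally named fgf9, fgf16 and fgf21 genes, which lie outside the rule, had at most 9.42 counts in any library.

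The intracellular members of the family, fgf11 to fgf14, are homologous factors that are not secreted and bind voltage-gated sodium channels. Fgf14.S was the only ligand-family homeolog past the threshold, and it fell. It had 359, 349 and 657 counts in DMSO a, b and c and 163, 17.8 and 25.7 in treated a, b and c. All treated libraries were below all controls, and treated library a kept the most. The log2 fold was -3.32 ± 0.80 (limma adjusted p = 0.0109), and the fall was stronger without treated library a (log2 fold -4.28) and smaller without treated b (-2.72). The provisionally named fgf14 gene had 9.32 to 33.1 control counts and 0.889 to 18.8 treated counts and was not called (limma adjusted p = 0.205). Fgf11, fgf12 and fgf13 had at most 7.41 counts in any library.

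Markers of tissues that make FGF ligands also differed between libraries. The mesoderm list (11 homeologs of tbxt, tbx6, msgn1, myod1, myf5 and actc1) summed to 310.4, 756 and 34.6 counts in DMSO a, b and c and to 223, 269 and 334 in treated libraries. Of the treated sums tbxt.S alone gave 211, 168 and 307 counts in a, b and c, and myod1.S gave 90.7 in b. The treated sums thus describe mostly a single homeolog. DMSO b was highest in mesoderm markers and in secreted ligands among the controls, and DMSO c lowest in both, but the order of the treated libraries differed between the mesoderm and ligand sums. In DMSO c tbxt.L, msgn1.L, msgn1.S and tbx6.S were at 0, and in all treated libraries msgn1.L, tbx6.S and myf5.S were at 0. By limma 1 of the 5 tested mesoderm homeologs was higher and 1 lower. The midbrain and hindbrain list (8 homeologs of en1, en2, pax2, wnt1 and egr2) summed to 20.997 to 23.8 counts in controls and to 2618, 319 and 1096 in treated a, b and c. Both copies of wnt1 and egr2.L, the 3 tested, were called higher. Among treated libraries egr2.L had 2539, 110.3 and 528 counts in a, b and c, the same order as fgf8.L. The wnt1 copies ran otherwise, with 52.8, 173 and 490.2 counts of wnt1.L and 10.4, 24.9 and 61.0 of wnt1.S, lowest in treated a like fgf3 and fgf8.S. The summed midbrain and hindbrain level was highest in treated a, where the ligand sum was lowest of the treated libraries. In treated a egr2.L alone gave 2539 of the 2618 counts. Both copies of en1 and en2, and pax2.L, stayed under the filter with at most 13.2 counts in any library, and en2.L was at 0 in every library. The part of these tissues in the ligand levels was not tested.

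**Figure D3:**
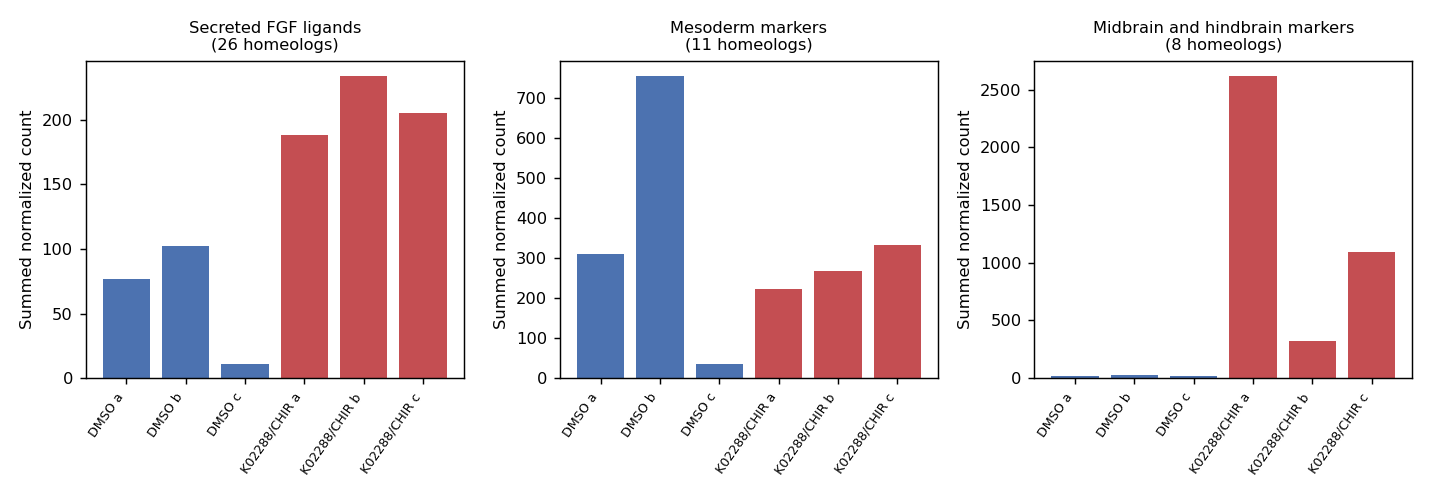
Bars give the summed normalized counts per library of 26 secreted ligand homeologs, 11 mesoderm marker homeologs and 8 midbrain and hindbrain marker homeologs, each panel on its own linear axis from 0. The ligand sum is 11.1 in DMSO c and 188 to 234 in treated libraries, and the mesoderm sum is lowest in DMSO c at 34.6. In treated a, b and c tbxt.S holds 211, 168 and 307 counts of the mesoderm sum. The midbrain and hindbrain sum is highest in treated a at 2618, of which egr2.L holds 2539.

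The Sprouty and Spred genes, membrane-associated inhibitors of Ras and Raf signalling that Erk induces in many tissues, moved in both directions. Of 14 homeologs 11 were tested, 4 of which rose (spry2.S, spry4.L, spred2.S and spred3.L), 1 fell (spry1.S) and 6 passed in neither direction. Over all tested genes 26.1% were called higher and 29.7% lower, so the share of these genes called is below the 55.8% of all genes. Spred3.L reached the filter through treated libraries alone, and spry1.S, with a treated mean of 6.56, through the controls. The direction of these calls was thus not independent of the filter. The 4 higher were 2 without DMSO library c, treated a or treated b, and 1 without treated c. The median log2 fold was 0.68.

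Spry2 was higher in every treated library. Spry2.S had 34.0, 51.8 and 18.5 counts in controls and 82.9, 127 and 148 in treated explants, and spry2.L 44.1, 35.2 and 9.88 against 55.6, 93.4 and 81.1. In both copies DMSO c was the lowest control and treated a the lowest treated library, and the groups did not overlap. The rise of spry2.S was a log2 fold of 1.82 ± 0.45 (limma adjusted p = 0.0121). Spry2.L, with a log2 fold of 1.54 ± 0.58, narrowly missed the threshold (limma adjusted p = 0.0589). It passed without DMSO a (limma adjusted p = 0.0451), under upper quartile scaling (limma adjusted p = 0.0322) and in DESeq2 (adjusted p = 0.0476).

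Spry4, an inhibitor of the same kind, rose in its L copy. Spry4.L had 113, 158 and 51.9 counts in controls and 555, 195 and 302 in treated explants, with treated b little above DMSO b. Its log2 fold was 1.70 ± 0.52 (limma adjusted p = 0.0285). The call was lost without DMSO a (limma adjusted p = 0.0586), DMSO c (0.075), treated a (0.0588) or treated c (0.0701). Spry4.S had 41.3, 67.3 and 3.71 counts in controls and 75.4, 66.7 and 55.3 in treated explants, groups that overlapped (limma adjusted p = 0.226). DMSO c was again the lowest control.

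Spry1 went down where it changed. Spry1.S had 80.8, 78.7 and 37.1 counts in controls and 13.2, 2.67 and 3.81 in treated explants, every treated library below every control. The log2 fold was -3.32 ± 0.64 (limma adjusted p = 0.00434), and -3.90 without treated library a. Spry1.L ranged from 66.7 to 101 control counts and from 24.0 to 74.4 treated counts and was not called (log2 fold -0.99 ± 0.45, limma adjusted p = 0.103). Without treated library a it did (log2 fold -1.39, limma adjusted p = 0.0214). Spry3 had at most 4 control and 5 treated reads in a copy.

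Of the Spred genes, spred3.L and spred2.S were called. Spred3.L had 2.76, 0 and 1.24 counts in controls and 13.2, 24.0 and 22.9 in treated explants, so that it reached the filter through the treated libraries alone. From 4 control reads to 65 treated reads, its log2 fold was 3.33 ± 0.67 (limma adjusted p = 0.00516). Spred3.S, below the filter, had 4 and 18 reads. Spred2.S rose from 164 ± 40.7 to 259 ± 25.4 counts (limma adjusted p = 0.0468), missed the threshold in edgeR (adjusted p = 0.0561), and kept its call without DMSO a but not without any other library. Leaving out DMSO b gave a limma adjusted p of 0.122 and DMSO c 0.137, and treated a, b and c gave 0.0957, 0.0658 and 0.106. Spred2.L, with 776 to 1528 counts in controls and 947 to 1479 in treated explants, and both copies of spred1 were not called (limma adjusted p = 0.163 to 0.74). The provisionally named spred1 gene had 22.6 to 44.5 counts in all libraries (limma adjusted p = 0.659).

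The Dusp genes encode phosphatases that remove the activating phosphates of MAP kinases, and dusp6, dusp7 and dusp9 act on Erk in the cytoplasm, dusp4 and dusp5 in the nucleus. Of 10 homeologs 9 were tested, with 3 higher (dusp6.S, dusp7.L and dusp9.S), 3 lower (dusp4.L, dusp5.S and dusp6.L) and 3 called in neither direction. Both shares lie near the 26.1% of all tested genes called higher and the 29.7% called lower. The 3 higher were homeologs of the cytoplasmic phosphatases, and so was dusp6.L, which was called lower. The lower ones numbered 1, dusp5.S, when DMSO a, b or c was left out and under both scaling alternatives, and 2 without treated c.

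Dusp6, a widely used readout of FGF activity in vertebrate embryos, moved in opposite directions in its copies. Dusp6.S had 244, 325 and 152 counts in DMSO a, b and c and 832, 707 and 1123 in treated a, b and c. Dusp6.L had 686, 555 and 577 counts in controls and 438, 243 and 371 in treated explants. Neither overlapped between the groups. The log2 fold was 1.92 ± 0.32 for dusp6.S (limma adjusted p = 0.00229) and -0.82 ± 0.25 for dusp6.L (limma adjusted p = 0.0266). The dusp6.L call was lost without DMSO a (limma adjusted p = 0.088), b (0.0542) or c (0.0621) or treated c (0.0533), under upper quartile scaling (0.0874) and under total-count scaling (0.0815). Added up, the copies gave 930.3, 880.4 and 729 counts in controls and 1270.3, 949.8 and 1494 in treated explants. The sums did not overlap, though treated b was little above DMSO a.

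Dusp7 rose in its L copy, with 91.8, 103 and 115 counts in controls and 399, 516 and 515 in treated explants. The 3 treated libraries lay close together and far above the controls, at a log2 fold of 2.19 ± 0.21 (limma adjusted p = 0.000291). Dusp7.S had 23.0, 15.5 and 6.18 counts in controls and 5.65, 9.78 and 0.954 in treated explants, groups that overlapped (limma adjusted p = 0.168). Dusp9.S had 14.7, 16.6 and 2.47 counts in controls and 85.8, 112 and 113 in treated explants, a log2 fold of 3.40 ± 0.66 (limma adjusted p = 0.00453). Every treated library exceeded every control for dusp9.S, and DMSO c was lowest. Without DMSO c the log2 fold of dusp9.S was 2.65. Dusp9.L, below the filter, had 3 control reads and 24 treated reads, a ratio of 7.08 (95% counting interval 2.15 to 36.8).

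Of the nuclear phosphatase genes, dusp5.S and dusp4.L were called lower. Dusp5.S had 392, 498 and 347 counts in controls and 87.6, 93.4 and 147 in treated explants, well separated, at a log2 fold of -1.93 ± 0.27 (limma adjusted p = 0.00126). Dusp5.L had 910.3 to 994 counts in controls, and 233, 1083 and 927 in treated a, b and c, so that treated library a alone was low (limma adjusted p = 0.375). Dusp4.L went from 378 ± 7.10 to 218 ± 55.2 counts (SD, n = 3), below every control in each treated library (log2 fold -0.82 ± 0.23, limma adjusted p = 0.0207). Its call was lost without DMSO a (limma adjusted p = 0.0631), b (0.0582) or c (0.0573) and under upper quartile scaling (0.086) and total-count scaling (0.0681). Dusp4.S ranged from 76.6 to 140 control counts and from 155 to 239 treated counts, without overlap. It was not called (log2 fold 0.69 ± 0.33, limma adjusted p = 0.111), but passed as higher under upper quartile scaling (limma adjusted p = 0.0322) and total-count scaling (0.0459).

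**Figure D4:**
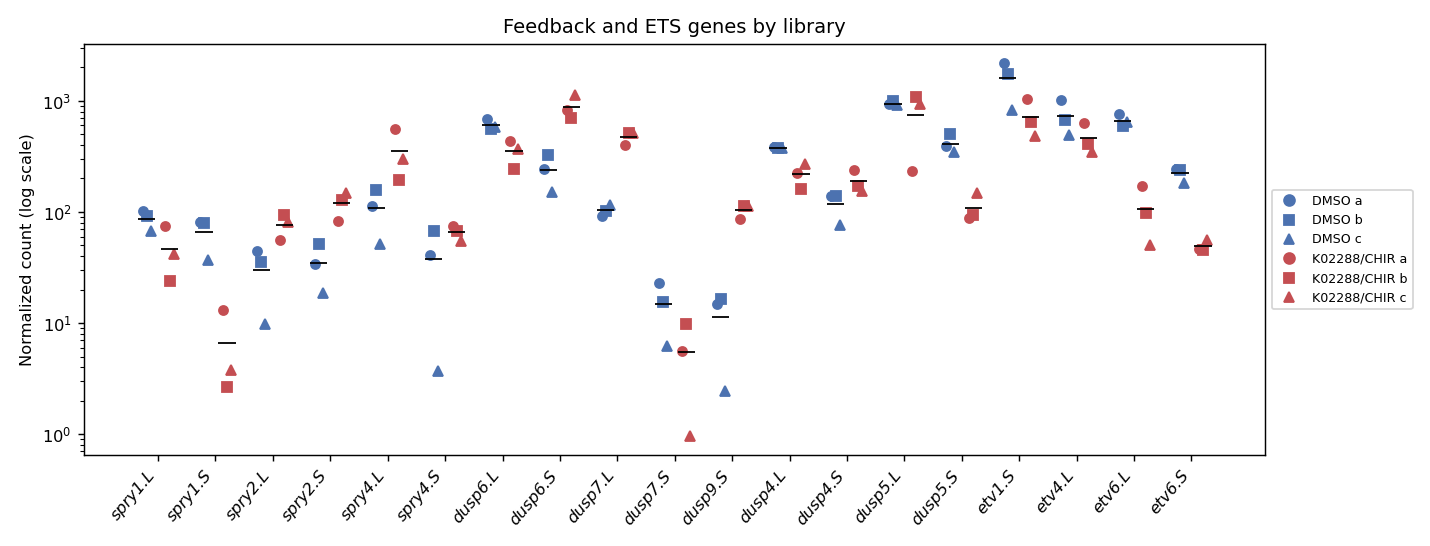
Normalized counts of 19 Sprouty, Dusp and Etv homeologs are drawn on a log axis, 1 point per library and a black line at each group mean. Treated points sit above the controls for dusp6.S, dusp7.L, dusp9.S and spry2, and below them for spry1.S, dusp5.S and both copies of etv6, while the triangle of DMSO c is the lowest control for most genes.

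The Etv genes were lower or not called. Of 4 tested homeologs 2 were lower and 2 not called, beside 29.7% of all tested genes called lower and 26.1% called higher. Etv6, an ETS repressor, fell in both copies. Etv6.L had 765, 587 and 640 counts in controls and 172, 97.8 and 50.5 in treated explants, and etv6.S 245, 240.3 and 180.3 against 46.2, 45.4 and 56.3. Every treated library was below every control for both, and for etv6.L treated a kept the most. The log2 folds were -2.79 ± 0.43 for etv6.L (limma adjusted p = 0.00167) and -2.14 ± 0.25 for etv6.S (limma adjusted p = 0.000635). No Etv homeolog was called higher by limma, edgeR or DESeq2, and none had an unadjusted p under 0.05 in that direction.

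Etv4 and etv1, the Pea3-type factors that serve as FGF target genes, did not rise with the receptors. Etv4.L had 1011, 678 and 490.3 counts in DMSO a, b and c and 627, 406 and 349 in treated a, b and c, groups that overlapped. In every letter pair the treated library was lower, and the log2 fold was -0.64 ± 0.33 (limma adjusted p = 0.136). Etv1.S had 2203, 1730 and 830.0 counts in controls and 1035, 641 and 478 in treated explants, also lower in every letter pair (log2 fold -1.11 ± 0.42, limma adjusted p = 0.0599). With the library letter as a replicate block, both passed (limma adjusted p = 0.0142 for etv4.L and 0.00454 for etv1.S), and the Etv genes called lower became 4. The share of all genes called lower under the block is not given here, so that count stands without a background. Both also passed without treated library a (limma adjusted p = 0.0447 and 0.0226), and etv1.S without DMSO c (0.0161) and in DESeq2 (adjusted p = 0.0193). The provisionally named etv4 gene had 2 reads in all. No gene name matched etv5, so no homeolog of it could be analysed.

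Within the controls, the inhibitors and ETS factors shared a pattern with the ligands. Counted after the values were seen, DMSO library c was the lowest control for 19 of the 24 tested Sprouty, Spred, Dusp and Etv homeologs, or 79.2%, beside 30.4% of all tested genes. It was the lowest for 3 of 10 receptor homeologs. DMSO c also held 9 reads of secreted ligands against 84 and 99 in a and b, and 34.6 counts of the mesoderm markers against 310.4 and 756. The part of mesoderm cells in the control levels of these genes was not tested.

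The L to S ratio was tested separately, since the copies of several genes moved unequally. The test was run with limma on log2(L + 1) minus log2(S + 1) in each library over 5796 pairs. A length difference between the copies largely cancels in the change of that ratio between the groups. It does not cancel in the ratio of a single library, whose level and sign are not read as relative abundance. Of 17 pairs of FGF genes 5 changed their ratio (29.4%), beside 38.0% of all pairs. The 5 were fgfr4, dusp4, dusp6, dusp7 and spry1. In fgfr4 the ratio went from -1.02, -0.17 and -0.68 in DMSO a, b and c to 1.31, 1.34 and 1.33 in treated explants. The change was 1.95 ± 0.21 in favour of L (limma adjusted p = 0.00116), and the treated libraries were almost identical. In dusp6 it went from 1.49, 0.77 and 1.92 to -0.92, -1.54 and -1.60, a change of -2.74 ± 0.34 in favour of S (limma adjusted p = 0.00175). The sign of the dusp6 ratio thus turned between the groups in every library, though where a sign turns also depends on the lengths of the copies.

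The other 3 ratio changes concerned genes with fewer reads. For spry1 the ratio moved by 2.33 ± 0.44 (limma adjusted p = 0.00732) and for dusp7 by 3.64 ± 0.82 (limma adjusted p = 0.0135), both in favour of L. The dusp7 change was 2.87 without treated library c. Dusp7.S, the S copy in that ratio, had 45 control and 18 treated reads and a mean of 10.2, just above the filter. The dusp7 pair was tested in only 4 of the fits with a library left out. For dusp4 it moved by -1.51 ± 0.38 (limma adjusted p = 0.0199), and this was lost without DMSO c (limma adjusted p = 0.0619) or treated b (0.0594). Dusp5 did not pass (limma adjusted p = 0.0786) and did without treated library a (0.00449). For fgfr1 and fgfr2 the ratio changes were 0.30 ± 0.18 and -0.33 ± 0.15 and did not pass (limma adjusted p = 0.239 and 0.125). The fold changes of L and S had opposite signs in 4 of the 17 pairs, of which dusp6 had a call in each direction. Reads that align to more than 1 place are lost to both copies, and their share was 11.1% in DMSO a and 4.93% to 5.91% in the other libraries. Whether this affected single pairs was not tested.

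**Figure D5:**
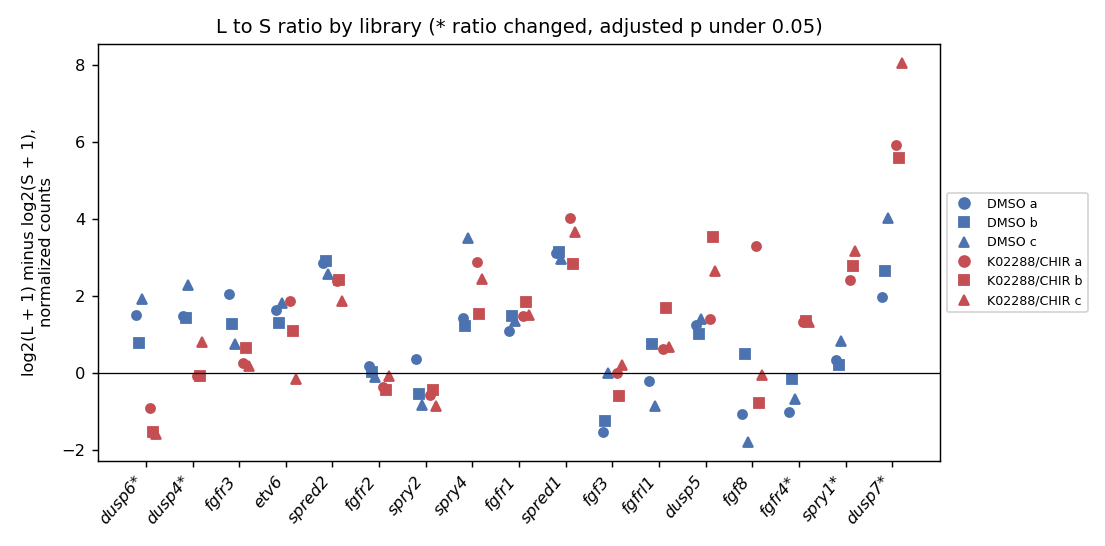
For 17 FGF genes with both copies tested, the log2 ratio of L to S is drawn per library, ordered by its change, with asterisks where the ratio changed at a limma adjusted p under 0.05. The treated points of fgfr4, spry1 and dusp7 lie above the controls, and those of dusp6 and dusp4 below.

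Other genes of the pathway were examined in 4 lists, which describe how the steps around the receptor behaved. Their counts are to be read beside the 26.1% of all genes called higher and the 29.7% called lower. In the Ras-ERK cascade, 6 of 40 tested homeologs rose and 13 fell, with a median log2 fold of -0.28. Under upper quartile scaling, which also raised the median of all genes, 14 were higher. Higher were the receptor adaptors frs3.L (1.33 ± 0.41) and frs2.S (1.03 ± 0.14), the Ras inhibitor nf1.L (0.96 ± 0.23) and the scaffold ksr1.L (0.76 ± 0.20), all as log2 folds. The frs3.L call was lost without DMSO a (limma adjusted p = 0.0849) or c (0.0881), or treated a (0.0708), b (0.0513) or c (0.0666). That of ksr1.L was lost without DMSO c (limma adjusted p = 0.0513). The S copy of ksr1 was called lower (log2 fold -0.95, limma adjusted p = 0.0153). The ksr1.S call was lost without DMSO b (limma adjusted p = 0.0586) and under total-count scaling (0.0539). Lower were the phospholipase plcg1.S (-1.50 ± 0.26), the kinases araf.L (-1.47 ± 0.22) and map2k1.S (-1.26 ± 0.21), and nras.L (-1.43 ± 0.19). The other copies plcg1.L (log2 fold -0.56, limma adjusted p = 0.177), araf.S (-0.51, 0.086) and map2k1.L (-0.40, 0.0828) were not called. Araf.S passed without treated a (limma adjusted p = 0.0219) and map2k1.L without treated b (0.0373).

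Co-receptors and extracellular modulators changed in both directions. Of 22 tested homeologs 8 rose and 7 fell, with a median of 0.36. The higher ones numbered 4 without treated library c. Il17rd.L was called higher (log2 fold 1.18, limma adjusted p = 0.0347), but not in edgeR (adjusted p = 0.0517). Its call was also lost without DMSO a (limma adjusted p = 0.072) or c (0.0615), or treated b (0.0945) or c (0.0773). Il17rd.S was not called (log2 fold 0.98, limma adjusted p = 0.0861). It passed in DESeq2 (adjusted p = 0.0331), under both scaling alternatives, with the block and without treated a (limma adjusted p = 0.0295). Anos1, a matrix protein that modulates FGF receptor signalling, had 0 to 29.0 counts of either copy in control libraries and 80.9 to 527 in treated ones. Its log2 folds were 5.47 ± 0.68 for anos1.S and 4.79 ± 0.50 for anos1.L, and that of anos1.S was 4.75 without DMSO a. Flrt3.L, a membrane partner of FGF receptors, rose by 2.55 ± 0.46 from 142, 306 and 168 to 2051, 668 and 1090.1 counts, and the glypican gpc1.L by 2.49 ± 0.64. The gpc1.L call was lost without treated c (limma adjusted p = 0.0567). The other copies, flrt3.S (log2 fold -0.04, limma adjusted p = 0.959) and gpc1.S (-1.13, limma adjusted p = 0.238), were not called. Without DMSO a gpc1.S was called lower (log2 fold -2.01, limma adjusted p = 0.0105). Klb, the co-receptor of endocrine FGFs, fell with log2 folds of -4.61 for L and -4.44 for S. These were -5.30 and -5.48 without treated a, -3.87 for klb.L without DMSO b and -3.67 for klb.S without treated b. Flrt2.L had a log2 fold of -2.42 (-1.73 without treated b) and the heparan sulfate sulfotransferase gene hs6st1.S one of -1.83.

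The ERK response list, which holds immediate early and other genes that Erk induces, had 5 of 28 homeologs higher and 8 lower, with a median log2 fold of 0.03. The higher ones numbered 8 under upper quartile scaling and without treated library b. Higher were phlda1.L (4.24 ± 0.52), mycn.S (3.59 ± 1.09), ets2.S (2.49 ± 0.23) and ets1.S (2.18 ± 0.24), as log2 folds. Their other copies were not called, with log2 folds of 0.81 for phlda1.S, 2.27 for mycn.L, 0.03 for ets2.L and 0.26 for ets1.L. The limma adjusted p was 0.33, 0.0898, 0.89 and 0.534 in that order. Mycn.L passed in edgeR (adjusted p = 0.0353), in DESeq2 (adjusted p = 0.0162) and without treated b (limma adjusted p = 0.00631). Mycn.S had 478, 21.3 and 215 counts in treated a, b and c, and its call was lost without DMSO a (limma adjusted p = 0.0816) or c (0.0745), or treated a (0.0532) or c (0.0904). The mycn.S fold was 2.66 without treated a and 4.87 without treated b. Lower were the AP-1 genes fosl2.S (-3.57 ± 0.34), junb.L (-2.96 ± 0.27), jun.L (-2.31 ± 0.51) and junb.S (-2.09 ± 0.26). Fosl2.L was not called (log2 fold -0.53, limma adjusted p = 0.0919), but passed without treated a (0.0395). Jun.S was called lower (log2 fold -1.69, limma adjusted p = 0.0416). The jun.S call was lost without the filter, with the block, under both scaling alternatives, and without DMSO a or b or treated a or b. Junb.L had 1034, 1885 and 1183 counts in controls and 209, 160.1 and 145 in treated explants, without overlap.

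Mesoderm and posterior genes that depend on FGF signalling in the embryo were called in neither direction by limma without the block. Of 10 tested homeologs of tbxt, msgn1, cdx1, cdx2, cdx4 and hoxb9, limma called 0 and an unadjusted p under 0.05 was reached by 0, while edgeR called 1 lower and DESeq2 2 lower. With the library letter as a replicate block limma called cdx1.S lower (adjusted p = 0.0152), a caudal-type gene of the posterior axis. Its counts were 393, 846 and 18.5 in DMSO a, b and c and 77.3, 10.7 and 1.91 in treated explants, lower in every letter pair. Control levels of these genes differed widely between libraries. Cdx4.S, for example, had 223, 700.2 and 13.6 counts in DMSO a, b and c and 233, 152 and 20.03 in treated explants. Without DMSO c 4 homeologs were lower, without treated a 1, and without DMSO b or treated b 1 was higher. Tbxt.L had 128, 270.3 and 0 counts in controls and 0, 1.78 and 0.954 in treated explants, whereas tbxt.S had 135, 255 and 14.8 against 211, 168 and 307.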

How the data were processed

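Per the labels, 3 libraries of treated and 3 of DMSO explants were sequenced. The deposited table gives a signal per library, which is a gene's read count after division by a size factor. Per the file headers it is normalized, and of 184429 values above 0, 100% lay within 0.01 reads of a whole number of reads, which were so recovered. The submitters' processing notes name DESeq with no version. What aligner, counter, build and annotation were used is not given in the sources used here. Left out were 5 summary rows of the read counter, holding 10.9% to 12.8% of reads in no gene, 0.439% to 0.716% ambiguous and 4.93% to 11.1% aligned to more than 1 place. In 1 row the cells were shifted because its name was broken, and it was mended.

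Genes with a mean of at least 10 were tested with limma 3.58.1 with trend on log2(value + 1) and Benjamini-Hochberg adjustment. L to S ratios were fitted the same way over all pairs. Alternatives were pseudocounts of 0.5 and 5, no filter, a mean of at least 50, upper quartile and total-count scaling, edgeR 4.0.16 and DESeq2 1.42.0 on the recovered reads (R 4.3.3), the letter as a block, and each library left out. The fits were tested on simulated data. Titles number the replicates while columns carry letters. Deviations from the group means correlated at 0.33, 0.40 and 0.32 between libraries of the same letter and at -0.23 to -0.09 otherwise. Letters were therefore taken to pair the libraries, but in the block fit alone. The main fits, and the p-values given without mention of the block, leave the pairing out. Members, lists and tests were chosen with earlier results of these data known. Every member is accounted for, with values per library for genes past the threshold with an absolute log2 fold of at least 2 and a mean of at least 50 and for fgf8, fgfr1 to fgfr4, spry2, dusp6 and etv4, others by the same or as ranges. The rule also names etv5, but no gene matched that symbol. Of each pathway list up to 4 called genes per direction with the largest change are named; others were chosen after their values were seen. Of the members, 66 of 71 matched a RefSeq symbol. Intervals are exact binomial and cover counting error only. A count of 0 was given a fixed limit of 3 reads, at a depth of 33706389 to 43155031 gene reads per library.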

Additional observations from a re-analysis of the deposited data

How the results depend on the processing

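Of the 22 members called, 16 kept their call in each of the 15 alternative fits in which they were tested, and no called member changed direction in any of them. The other 6 (dusp4.L, dusp6.L, fgfr2.S, fgfr3.L, spred2.S and spry4.L) lost it in at least 1. Spred3.L, among the 16, was tested in only 4 of the fits with a library left out. Of 17 members not called, 6 passed in at least 1 fit and 5 changed sign without passing. Among the other pathway genes, 32 of 47 calls held in every fit in which the gene was tested. Without the filter 5 ligands were higher and 2 lower. With a mean of at least 50, 0 Sprouty or Spred homeologs were lower (spry1.S was no longer tested) and 3 L to S ratios changed. Both scaling alternatives gave 1 lower Dusp gene, 1 lower receptor and 2 higher ligands (fgf2.L and fgf22.L, which then reached the filter), with 14 higher genes of the Ras-ERK cascade and 8 of the ERK response list. The all-gene median log2 fold was 0.27 under total-count scaling. Of the mesoderm and posterior genes, edgeR called 1 lower, DESeq2 2 and the replicate block 1. The replicate block also gave 4 lower Etv genes, 13 higher and 11 lower members, 6 changed ratios, and calls for il17rd.S, braf.S, nf1.S, gab1.S, cdx1.S and the spred2 ratio, while jun.S lost its call (limma adjusted p = 0.056). It moved no other count of members by over 1.5 times. The shares of all genes called under the block and under both scaling alternatives are not given here.

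With a library left out, higher genes numbered 4591 to 5949 and lower genes 5712 to 7029 over all genes, members 9 to 14 higher and 6 to 12 lower, and changed ratios 4 to 6. By role the ranges were 1 to 4 higher and 1 to 2 lower Sprouty and Spred, 1 to 3 lower Dusp, 2 to 4 lower Etv, 5 to 6 higher and 1 to 2 lower receptors, and 0 to 2 higher ligands. By list they were 4 to 5 higher and 11 to 16 lower for the Ras-ERK cascade, 4 to 10 higher and 5 to 7 lower for modulators, 4 to 8 higher and 6 to 8 lower for the ERK response, and 0 to 1 higher and 0 to 4 lower for mesoderm and posterior genes. A pseudocount of 5 took the log2 folds of spred3.L to 1.98, spry1.S to -2.65, anos1.S to 4.12, gpc1.L to 1.74, klb.S to -3.09 and phlda1.L to 3.04, and the spry1 ratio to 1.73. By edgeR and DESeq2 fgf14.S had -2.70 and -2.73, mycn.S 4.45 and 4.44, and phlda1.L 4.84 and 4.93. The cause of these shifts was not tested. At these depths ligands with a few reads per library limit what can be compared.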
